A study of Homo sapiens with 14 samples.

Results

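The 10 genes described here encode the channels and pumps that fill and empty the calcium store of the endoplasmic reticulum (ER) and those that exchange its calcium with the outside of the cell. They were taken by gene symbol from the 23106 symbols counted in each library, and all 10 were found. They are the inositol 1,4,5-trisphosphate (IP3) receptors ITPR1, ITPR2 and ITPR3, the ER calcium pumps ATP2A1, ATP2A2 and ATP2A3, the plasma membrane calcium pumps ATP2B1 and ATP2B4, the ER calcium sensor STIM1 and the calcium channel subunit ORAI1. ATP2B1, ATP2B4 and ORAI1 work at the plasma membrane, so the set is wider than the ER itself. The genes were selected on results of these data: the rise of ITPR1 in hypoxic PC3 cells and the fall of ATP2A1 in hypoxic HCT116 cells were already known, and both are given below as descriptions without a test.

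Polyadenylated RNA was sequenced from PC3, a human prostate cancer cell line grown in DMEM/Ham's F12, and from HCT116, a human colorectal cancer cell line grown in McCoy's 5a. Both were unmodified lines kept at 5% CO2 in media with penicillin, streptomycin, L-glutamine and 10% fetal bovine serum. Each line was kept in normoxia (21% O2) or in hypoxia (0.5% O2 for 16 h), giving 4 biological replicates of each condition for PC3 and 3 for HCT116. Each line differs from the other in its tissue of origin, donor and medium at once, and these cannot be told apart.

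In most animal cells, SERCA pumps (the ATP2A genes) move calcium from the cytosol into the ER. When phospholipase C makes IP3, IP3 receptors open and release that calcium, and nearby mitochondria take up part of it. STIM1 senses the fall in ER calcium and opens ORAI1 channels in the plasma membrane, which is called store-operated entry, and PMCA pumps (the ATP2B genes) export calcium from the cell. The isoforms of a family differ in tissue: ITPR1 is best known in neurons, ATP2A1 in fast skeletal muscle, ATP2A2 in nearly every tissue, and ATP2A3 in blood, endothelial and epithelial cells.

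The promoters of the 3 members that the results turn on most, ITPR1, ATP2B4 and ATP2A1, are shown 5′ to 3′ on the strand of the gene, each up to the base before its annotated start. The sequences are RefSeq's promoter windows (GRCh38.p14), and each was found once, unchanged, in GRCh37, whose coordinates are given. Capitals mark ACGTG or GCGTG on either strand, the core of the element that hypoxia-inducible factors bind.
ITPR1, chr3:4534782-4535028, plus strand, 247 bases: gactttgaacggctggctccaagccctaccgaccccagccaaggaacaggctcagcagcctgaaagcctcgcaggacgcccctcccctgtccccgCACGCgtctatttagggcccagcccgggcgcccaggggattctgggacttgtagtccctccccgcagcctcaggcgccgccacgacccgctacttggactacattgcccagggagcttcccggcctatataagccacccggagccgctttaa
ATP2B4, chr1:203595710-203595959, plus strand, 250 bases: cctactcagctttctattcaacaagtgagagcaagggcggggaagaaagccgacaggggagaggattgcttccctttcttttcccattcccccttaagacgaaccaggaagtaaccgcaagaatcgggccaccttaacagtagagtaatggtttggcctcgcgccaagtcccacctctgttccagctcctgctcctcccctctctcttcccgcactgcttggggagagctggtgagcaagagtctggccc
ATP2A1, chr16:28889559-28889725, plus strand, 167 bases: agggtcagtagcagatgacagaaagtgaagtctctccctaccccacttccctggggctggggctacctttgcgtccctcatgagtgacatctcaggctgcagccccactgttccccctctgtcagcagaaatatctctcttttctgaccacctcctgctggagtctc
The ITPR1 window held 1 match, read as CACGC on the strand shown and starting at position -155 from RefSeq's transcript start. The ATP2B4 and ATP2A1 windows held none. Of the 7 members with a window in the table, 4 (ITPR1, STIM1, ATP2B1 and ATP2A2) held a match in 1 or more of their windows of 250 bases. The same letters were found in 43.2% of the 35116 windows of that length in the table, 6.34% of which held CACGTG, an E-box that contains ACGTG. The 43.2% counts windows, whereas 4 of 7 counts genes, some with more than 1 window, so the units differ. A match in a window is a description of its letters and shows no binding.

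Values are given as CPM, the counts of a gene scaled to a common library size by TMM over all 14 libraries. Changes are edgeR's log2 fold changes (log2FC) ± standard error, and p-values are those of its quasi-likelihood test, adjusted over all genes tested. Total counts per library lay between 71228454 and 150630928, and the hypoxic PC3 libraries were the shallowest, at 71228454 to 96159803. At these depths 3 counts correspond to 0.0199 to 0.0421 CPM, and every member stood above that in every library. EPCAM, CDH1, KRT8 and KRT18, which mark epithelial cells, were at 1 CPM or more in all 4 groups. Of the prostate markers, HOXB13 and TMPRSS2 reached that level in PC3 while KLK3 did not, and of the 7 intestinal markers only CDX2 reached it in HCT116. None of the 8 skeletal and cardiac muscle markers reached it in any group, with a summed level of at most 0.217 CPM. The known hypoxia-induced genes NDRG1, VEGFA, BNIP3 and CA9 summed to 391 to 559 CPM in normoxic and 2172 to 3684 CPM in hypoxic PC3 libraries. In HCT116 they summed to 150 to 156 and 873 to 1145 CPM. CA9 reached a mean of 1 CPM in hypoxic HCT116 and in no other group.

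**Figure D1:**
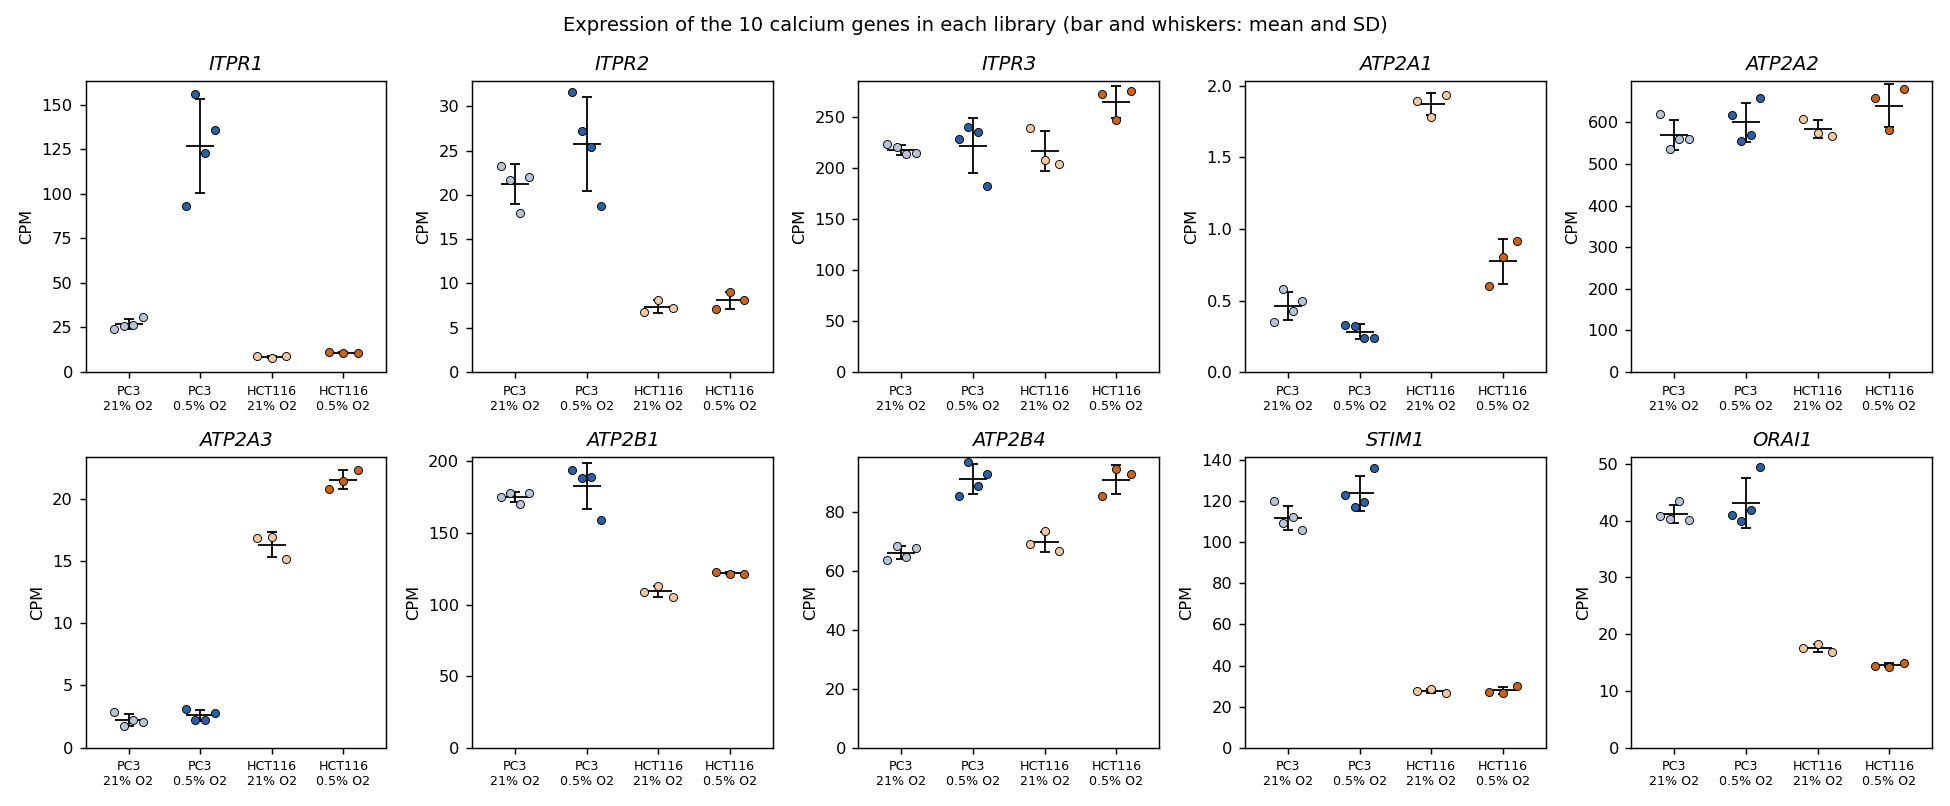
Expression of the 10 members in each of the 14 libraries, in CPM on a linear axis that starts at 0 and differs between panels; points are libraries, and the bar and whiskers are the mean and SD of a group. Hypoxic PC3 libraries stand at 93.0 to 156 CPM for ITPR1, above every other library, and HCT116 libraries stand above PC3 for ATP2A1 and ATP2A3.

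ITPR1 stood higher in hypoxia in both lines, with the wider gap in PC3. In PC3 it was at 24.1, 25.9, 26.7 and 30.8 CPM in normoxia and at 93.0, 156, 123 and 136 CPM in hypoxia (means 26.9 ± 2.84 and 127 ± 26.4, SD, n = 4). The groups did not overlap, and replicate 1 was the lowest library of both. The log2FC was 2.24 ± 0.14, a ratio of means of 4.72. It stayed between 2.14 and 2.36 whichever library was left out. The gene spans chr3:4535029-4889190 (GRCh37, plus strand).

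In HCT116 the level of ITPR1 and its gap between conditions were smaller. It stood at 8.74, 7.82 and 9.09 CPM in normoxia and at 11.1, 10.9 and 10.6 CPM in hypoxia. The groups did not overlap, and the log2FC was 0.36 ± 0.08 (edgeR adjusted p = 0.00988). Without normoxia replicate 2, the lowest of the normoxic libraries, the adjusted p was 0.0553, and in 1 fit over both lines, which shares the spread of the PC3 libraries, it was 0.141. The response in PC3 exceeded that in HCT116 by 1.89 ± 0.19, a value from the same contrast as the choice of the gene and given without a test. The PC3 level was 3.14 times that of HCT116 in normoxia and 11.7 times in hypoxia.

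ITPR2, a receptor that responds to lower IP3 than the others, was also a minor isoform. In PC3 it was at 23.2, 21.6, 18.0 and 22.0 CPM in normoxia and at 31.6, 27.2, 25.4 and 18.7 CPM in hypoxia. Hypoxia replicate 4 lay within the normoxic range while the other 3 lay above it. The log2FC of 0.29 ± 0.15 (edgeR adjusted p = 0.258) did not pass the threshold, and without that library it was 0.42 with an adjusted p of 0.0436. In HCT116, ITPR2 was at 6.81, 8.14 and 7.22 CPM in normoxia and at 7.15, 9.03 and 8.12 CPM in hypoxia, and the groups overlapped. There its log2FC was 0.15, with a 95% interval from -0.09 to 0.38.

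ITPR3, the isoform typical of epithelia, carried most of the IP3 receptor RNA in both lines. PC3 libraries were at 224, 221, 214 and 215 CPM in normoxia and at 229, 241, 236 and 182 CPM in hypoxia. The hypoxic libraries enclosed the normoxic range, with replicate 4 alone below it. The log2FC was 0.03, with a 95% interval from -0.18 to 0.24. In HCT116, ITPR3 was at 240, 208 and 204 CPM in normoxia and at 273, 247 and 276 CPM in hypoxia, so the groups did not overlap. It rose there by 0.30 ± 0.08 (edgeR adjusted p = 0.0140). The call was lost without normoxia replicate 2 or hypoxia replicate 3, with adjusted p of up to 0.0721, in 1 fit over both lines (adjusted p = 0.0761) and with total-count scaling. The difference between the responses of the lines, -0.26 (95% interval -0.54 to 0.02, adjusted p = 0.348), did not pass.

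Isoform use was read from CPM per kilobase of the longest annotated transcript of each gene, as a share of the family sum. In PC3, ITPR1 made up 10.2 ± 1.13% of IP3 receptor RNA in normoxia and 34.2 ± 6.08% in hypoxia (SD, n = 4), with libraries at 9.01% to 11.7% and at 26.7% to 40.7%. The share of ITPR3 was 83.4 ± 1.12% and 60.3 ± 4.99%, and that of ITPR2 was 6.35% and 5.49%. The family sum was 26.5 ± 0.527 CPM per kilobase in normoxia and 37.4 ± 3.83 in hypoxia, so the added RNA was mostly ITPR1. In HCT116 the shares were close between conditions: ITPR1 was at 3.69 ± 0.392% and 3.84 ± 0.230%, and ITPR3 at 93.8 ± 0.615% and 93.9 ± 0.560% (SD, n = 3). The family sum there was 23.5 ± 1.97 and 28.6 ± 1.51 CPM per kilobase.

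**Figure D2:**
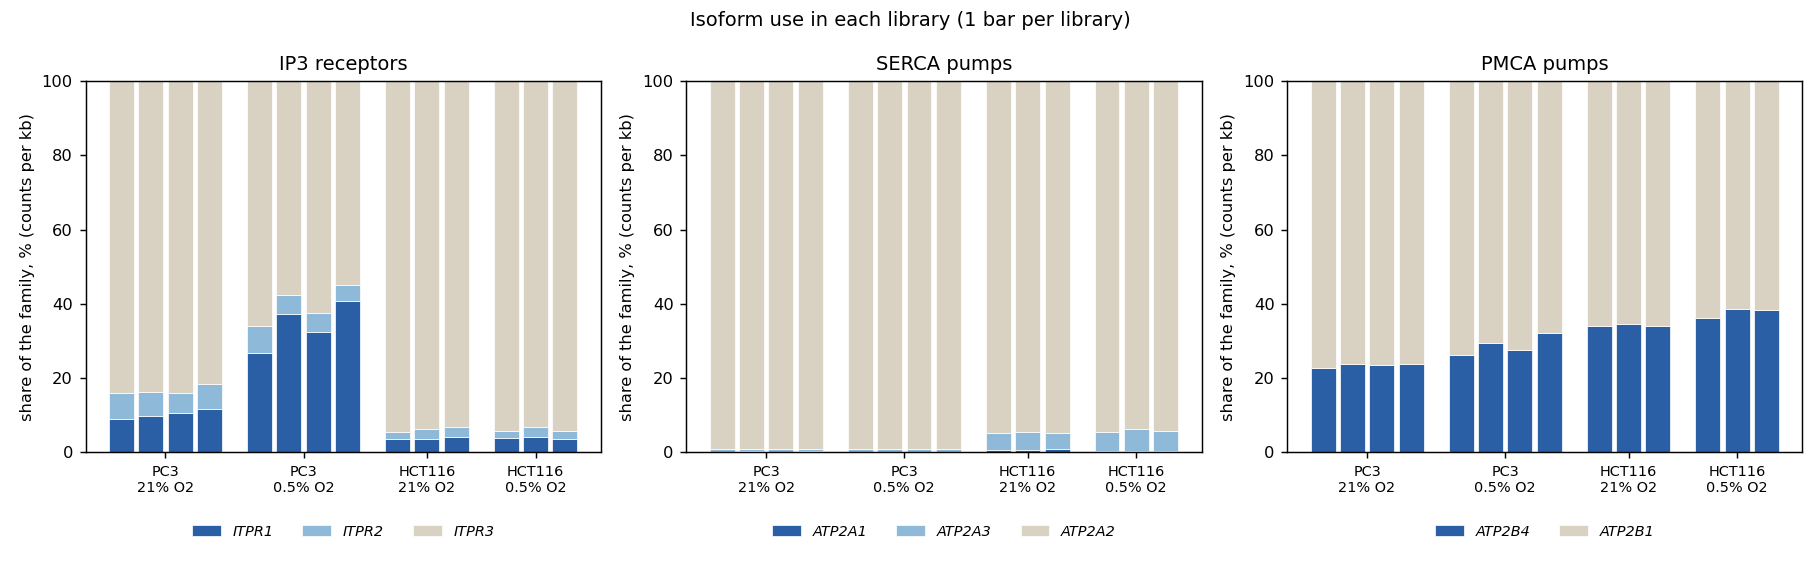
Share of each isoform in its family, in percent of the summed CPM per kilobase, with 1 stacked bar per library. ITPR1 takes 26.7% to 40.7% of IP3 receptor RNA in hypoxic PC3 libraries and at most 11.7% in every other library, and ATP2A2 takes over 93% of SERCA RNA in every library.

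Among the SERCA pumps, ATP2A2, the widely expressed form, differed little between lines and conditions. It was at 621, 537, 559 and 560 CPM in normoxic PC3 and at 618, 554, 571 and 658 CPM in hypoxic PC3. In HCT116 it was at 609, 573 and 568 CPM in normoxia and at 657, 583 and 681 CPM in hypoxia. All groups overlapped. The log2FC of hypoxia was 0.08 in PC3 (95% interval -0.11 to 0.27) and 0.15 in HCT116 (95% interval -0.01 to 0.31). Between the lines in normoxia it was -0.04 (95% interval -0.21 to 0.14). ATP2A2 held 99.1% and 99.2% of SERCA RNA per kilobase in normoxic and hypoxic PC3, and 94.7% and 94.3% in HCT116.

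ATP2A3 was the SERCA gene that differed most between the lines, with HCT116 at 7.27 times the PC3 level in normoxia. HCT116 libraries stood at 16.8, 16.9 and 15.1 CPM in normoxia and at 20.8, 21.5 and 22.3 CPM in hypoxia. The rise of 0.42 ± 0.07 (edgeR adjusted p = 0.00155) was called whichever library was left out, with adjusted p of at most 0.00949, but not in 1 fit over both lines (adjusted p = 0.109). PC3 libraries stood at 2.91, 1.75, 2.23 and 2.09 CPM in normoxia and at 3.14, 2.19, 2.26 and 2.80 CPM in hypoxia. Those groups overlapped, with a log2FC of 0.22 (95% interval -0.23 to 0.66, adjusted p = 0.518). The response did not differ between the lines past the threshold (-0.19, 95% interval -0.64 to 0.27). ATP2A3 took 0.667% and 0.735% of SERCA RNA in PC3 and 4.55 ± 0.229% and 5.47 ± 0.413% in HCT116 (SD, n = 3). With no length correction these shares were 0.390%, 0.429%, 2.71% and 3.26%.

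ATP2A1, the muscle pump, had the lowest level of the set in every group and stood lower in hypoxic than in normoxic HCT116. There it had 283, 252 and 259 counts in normoxia and 86, 112 and 116 in hypoxia, which is 1.90, 1.79 and 1.93 CPM against 0.601, 0.806 and 0.914 CPM. Every hypoxic library was below every normoxic one. The log2FC was -1.26 ± 0.18, between -1.39 and -1.11 with each library left out. In PC3 the counts were 42, 76, 44 and 60 in normoxia and 30, 25, 23 and 16 in hypoxia, or 0.352, 0.582, 0.427 and 0.497 CPM against 0.328, 0.323, 0.238 and 0.238 CPM. Those groups did not overlap either, but the log2FC of -0.71 ± 0.25 (edgeR adjusted p = 0.0957) did not pass. In a single fit over both lines its adjusted p was 0.0416. The responses of the lines differed by 0.56 (95% interval -0.13 to 1.24). ATP2A1 took 0.714% of SERCA RNA in normoxic and 0.268% in hypoxic HCT116, and 0.192% and 0.110% in PC3. With no length correction these shares were 0.311%, 0.117%, 0.0822% and 0.0471%.

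ATP2A1 (chr16:28889726-28915787, GRCh37, plus strand) is overlapped at its start by an antisense gene on the minus strand, ATP2A1-AS1 (chr16:28889259-28891259). Whether counting used strand is not stated in the sources used here, so reads of the overlap may have been lost or moved between them. ATP2A1-AS1 was at 4.54, 4.53 and 3.87 CPM in normoxic and 3.52, 3.10 and 3.48 CPM in hypoxic HCT116, a log2FC of -0.34 ± 0.11 (edgeR adjusted p = 0.0465). For each 100 antisense counts there were 39.4 to 50.0 ATP2A1 counts in normoxic and 17.1 to 26.2 in hypoxic HCT116 libraries, ranges that did not overlap. The ATP2A1 counts in these ratios are those that led to its choice, so the gap is a description. The PC3 ranges, 74.6 to 107 in normoxia and 43.2 to 89.3 in hypoxia, overlapped. In PC3 the antisense gene was at 0.362 to 0.572 CPM in all 8 libraries and did not pass (adjusted p = 0.680). SH2B1, which ends 4193 bases before ATP2A1, had a log2FC of -0.17 in HCT116 (adjusted p = 0.120). RABEP2, which overlaps the end of ATP2A1 on the other strand, had one of -0.02 (adjusted p = 0.943). SNORA43, a small RNA gene within ATP2A1, had 0 counts in all libraries. The part of these neighbours in the lower level of ATP2A1 was not tested.

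**Figure D3:**
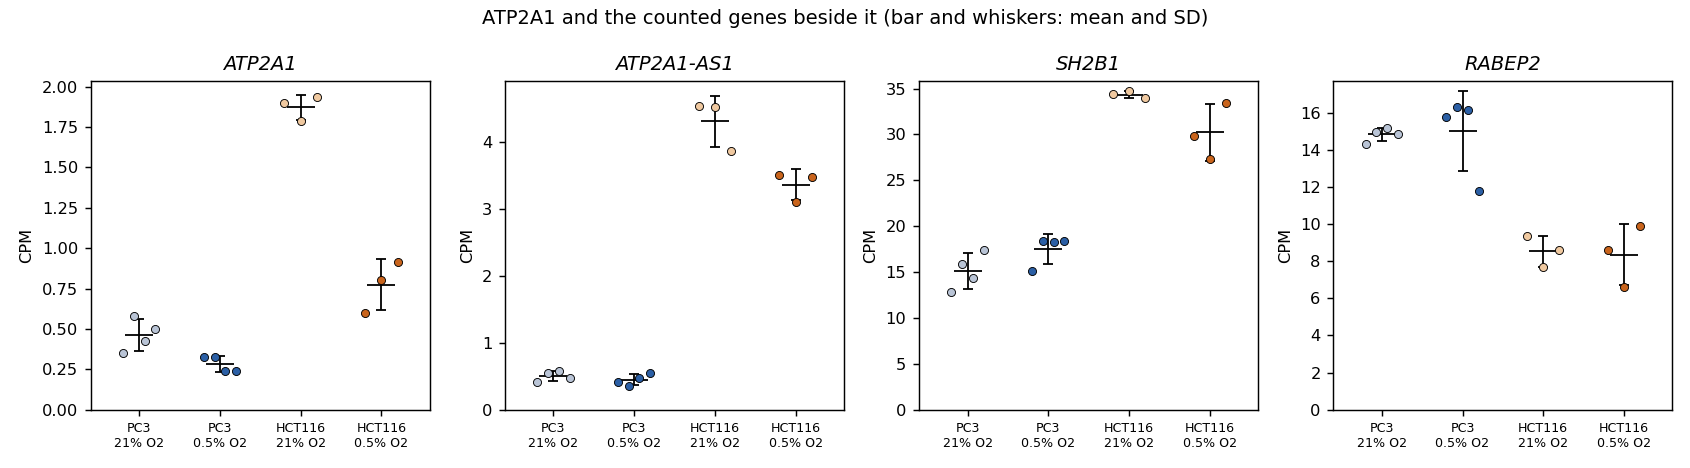
CPM of ATP2A1, its antisense gene ATP2A1-AS1 and the adjacent SH2B1 and RABEP2 in each library, on linear axes from 0; bars and whiskers are the mean and SD. In HCT116, ATP2A1 lies at 1.79 to 1.93 CPM in normoxia and 0.601 to 0.914 CPM in hypoxia, and the antisense gene at 3.87 to 4.54 CPM and 3.10 to 3.52 CPM.

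Of the other 9 members, 5 overlap a gene that is in the count files. UQCC2 (counted as MNF1), which overlaps the end of ITPR3 on the other strand, was at 25.2 to 31.3 CPM in normoxic and 26.2 to 35.0 CPM in hypoxic PC3, and at 31.3 to 51.4 and 38.2 to 42.2 CPM in HCT116. It passed in neither line (adjusted p = 0.569 and 0.880, edgeR). ATP2B1-AS1 (counted as LOC338758), at the start of ATP2B1, was at 0.389 to 1.18 CPM over all libraries and passed in neither (adjusted p = 0.425 and 0.937). EGOT, within ITPR1, had 23 counts in all 14 libraries together, SNORA77, within ATP2B4, had 6, and MIR4687, within STIM1, had 0.

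ATP2B4, a calmodulin-activated plasma membrane pump, rose in both lines. In PC3 it was at 63.6, 68.2, 64.7 and 67.8 CPM in normoxia and at 85.2, 97.0, 88.7 and 92.8 CPM in hypoxia, with no overlap. Its log2FC there was 0.47 ± 0.06 (edgeR adjusted p = 0.00193). In HCT116 it was at 69.2, 73.4 and 66.5 CPM in normoxia and at 85.3, 94.5 and 92.7 CPM in hypoxia, a log2FC of 0.40 ± 0.07 (edgeR adjusted p = 0.00158). Both calls held whichever library was left out. The responses differed by 0.08 (95% interval -0.12 to 0.28), and the levels in normoxia by -0.08 (95% interval -0.22 to 0.06).

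ATP2B1, the other PMCA pump of the set and found in most tissues, changed less. PC3 libraries were at 175, 178, 170 and 178 CPM in normoxia and at 194, 188, 189 and 159 CPM in hypoxia. Replicate 4 was below the whole normoxic range and the other 3 hypoxic libraries above it, and the log2FC was 0.06 (95% interval -0.11 to 0.24). In HCT116, ATP2B1 was at 109, 113 and 106 CPM in normoxia and at 122, 122 and 122 CPM in hypoxia. Those groups did not overlap, yet the log2FC of 0.18 ± 0.06 had an adjusted p of 0.0504 by edgeR. With a filter of at least 10 counts in every library the adjusted p was 0.0482. ATP2B4 made up 23.4 ± 0.467% of the RNA of both pumps per kilobase in normoxic and 28.9 ± 2.55% in hypoxic PC3 (SD, n = 4). In HCT116 its share was 34.1 ± 0.344% and 37.7 ± 1.37% (SD, n = 3).

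STIM1 and ORAI1, the pair that makes up store-operated entry, were higher in PC3. STIM1 was at 120, 110, 112 and 106 CPM in normoxic PC3 and at 27.4, 28.5 and 26.6 CPM in normoxic HCT116, a ratio of 4.07. ORAI1 was at 40.8, 40.3, 43.5 and 40.1 CPM and at 17.6, 18.3 and 16.8 CPM, a ratio of 2.35. No library of one line overlapped the other for either gene.

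STIM1 did not pass in either line in hypoxia. It was at 123, 117, 119 and 136 CPM in hypoxic PC3, a log2FC of 0.15 (95% interval -0.02 to 0.32, adjusted p = 0.220, edgeR). In hypoxic HCT116 it was at 27.2, 26.7 and 29.9 CPM, a log2FC of 0.04 (95% interval -0.10 to 0.18). ORAI1 fell in HCT116, to 14.3, 14.3 and 14.9 CPM, below every normoxic library. The log2FC was -0.26 ± 0.07 (edgeR adjusted p = 0.0174), and without normoxia replicate 2, the highest normoxic library, the adjusted p was 0.0702. In hypoxic PC3, ORAI1 was at 40.9, 40.0, 41.9 and 49.5 CPM, with replicate 4 highest, and the log2FC was 0.07 (95% interval -0.11 to 0.24). The difference between the lines' responses was 0.34 (95% interval 0.11 to 0.57), with an adjusted p of 0.126 by edgeR and of 0.0443 by DESeq2.

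**Figure D4:**
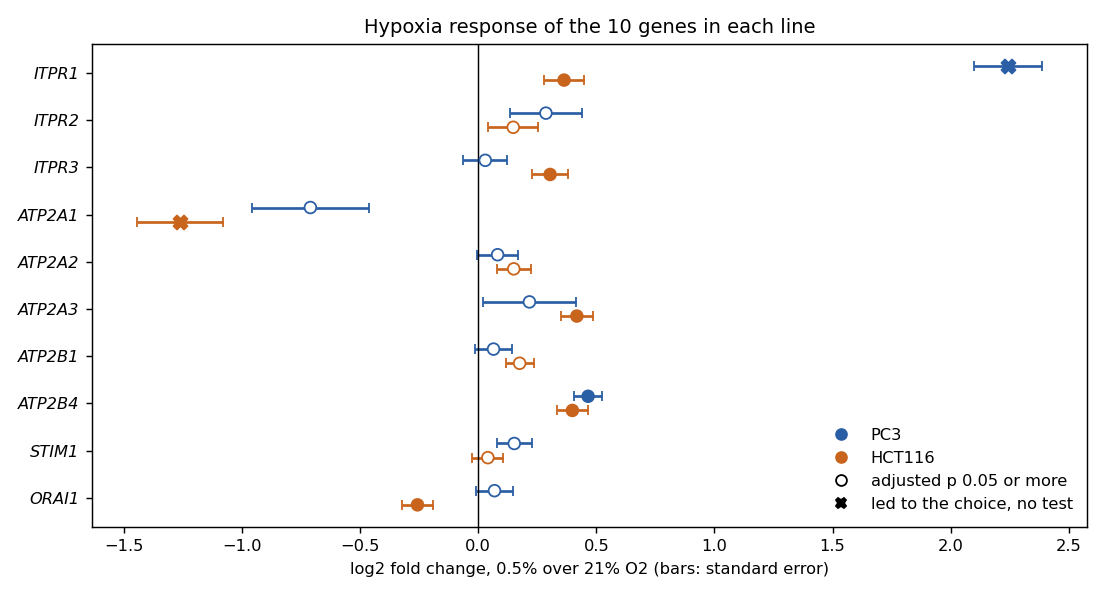
Log2FC of hypoxia over normoxia for each member in PC3 and HCT116 (x axis), with standard errors; filled circles passed an adjusted p of 0.05, open circles did not, and crosses mark the 2 values that led to the choice of the genes. ITPR1 in PC3 lies at 2.24 and ATP2A1 in HCT116 at -1.26, while every other point lies between -0.71 and 0.47.

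Besides ITPR1, whose value in PC3 led to the choice of the genes, 1 of the other 9 members passed in PC3, ATP2B4, which was higher in hypoxia. Of all 14309 genes tested in PC3, 11.3% passed in either direction and 6.03% as higher. With the replicate number as a block, which pairs the PC3 libraries, ATP2B4 was again the one that passed, while the share of all genes that passed was 28.5%. In HCT116, leaving aside ATP2A1 for the same reason, 5 of the other 9 passed: ITPR1, ITPR3, ATP2A3 and ATP2B4 were higher and ORAI1 lower. There 25.9% of 14120 genes passed, 14.6% as higher and 11.3% as lower, and with the block 26.6%. Without normoxia replicate 2 this count was 2, namely ATP2A3 and ATP2B4, where 17.9% of all genes passed. In 1 fit over both lines it was also 2, ATP2B4 and ORAI1, where 11.2% did. The median log2FC of the 10 members was 0.12 in PC3 and 0.16 in HCT116, against 0.00 over all genes tested in each line. Without ITPR1 in PC3 and without ATP2A1 in HCT116 it was 0.08 and 0.18. For the difference between the lines' responses, 0 of the 8 members other than ITPR1 and ATP2A1 passed in edgeR, 1 had an unadjusted p under 0.05, and DESeq2 called 1, ORAI1. Of all 15493 genes, 2.32% passed, 1.01% with the larger response in PC3 and 1.31% with the smaller one. With the block 0 of the 8 passed, where 8.44% of genes did. The set was chosen with these contrasts known, so the counts are descriptions.

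Between the lines in normoxia, 7 of the 10 members passed, where 81.3% of 15493 genes did, 42.4% as higher in PC3 and 38.9% as lower. ITPR1 and ATP2A1 are among the 7 and were chosen on contrasts that use these normoxic libraries, so the count is a description. STIM1 (log2 difference 2.03 ± 0.08), ITPR1 (1.65 ± 0.14), ITPR2 (1.52 ± 0.15), ORAI1 (1.23 ± 0.08) and ATP2B1 (0.68 ± 0.07) were higher in PC3. ATP2A3 (-2.86 ± 0.15) and ATP2A1 (-2.01 ± 0.22) were higher in HCT116. ITPR3, ATP2A2 and ATP2B4 differed by 0.01, -0.04 and -0.08 and did not pass. Their 95% intervals were -0.19 to 0.20, -0.21 to 0.14 and -0.22 to 0.06.

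On the per-kilobase scale ATP2A2 had the highest level of the set in every group, at 68.6 ± 4.34 CPM per kilobase in normoxic PC3 and 70.4 ± 2.68 in normoxic HCT116. The order uses the longest annotated transcript alone, and apart means only that the libraries did not overlap. That transcript has 2604 bases for ORAI1 and 9870 for ITPR3, while their longest coding sequences have 903 and 8013. The place of ORAI1 therefore depends on the length used. In normoxic PC3, ATP2B1 (24.3), STIM1 (23.6) and ITPR3 (22.1) followed, each overlapping the next, then ORAI1 (15.8), ATP2B4 (7.44), ITPR1 (2.71), ITPR2 (1.69), ATP2A3 (0.465) and ATP2A1 (0.132), all apart. In hypoxic PC3, ITPR1 had moved to 12.8 ± 2.66 CPM per kilobase and overlapped both ORAI1 (16.5) above it and ATP2B4 (10.2) below it. In normoxic HCT116 the order after ATP2A2 was ITPR3 (22.0), ATP2B1 (15.1), ATP2B4 (7.85), ORAI1 (6.74), STIM1 (5.79), ATP2A3 (3.38), ITPR1 (0.863), ITPR2 (0.588) and ATP2A1 (0.530), and only the last pair overlapped. In hypoxic HCT116, STIM1 (5.89) stood above ORAI1 (5.57), with overlapping libraries, and the other places were the same.

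The rest of the pathway was read from a list of 76 other genes that make or remove IP3, bind IP3 receptors or SERCA, buffer ER calcium, or move calcium across other membranes. In PC3, 64 were tested and 4 passed (6.25%, against 11.3% of all genes), 2 higher and 2 lower. C4orf3, whose micropeptide inhibits SERCA, rose from 72.2, 63.8, 63.7 and 58.8 CPM to 112, 125, 114 and 117 CPM (log2FC 0.86 ± 0.08). BCL2L1, which encodes the IP3 receptor partner Bcl-xL, rose by 0.39, a call lost without normoxia replicate 2, 3 or 4, where 3.83% to 6.31% of all genes passed. ERLIN2, which takes part in the degradation of activated IP3 receptors, fell from 62.4, 59.7, 60.5 and 55.7 CPM to 44.3, 39.6, 42.3 and 45.0 CPM (log2FC -0.47 ± 0.07). PLCG2, a phospholipase C, was lower by -0.48, but held in 1 of the 8 fits that each left out a library. With the replicate block 12 of the 64 passed, 9 higher and 3 lower, where 28.5% of all genes did.

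In HCT116, 65 of the pathway genes were tested and 17 passed (26.2%, against 25.9% of all genes), 15 higher and 2 lower. That split depended on the scaling: it was 12 and 5 with median-of-ratios scaling and 4 and 10 with total-count scaling, which moved the median log2FC of all genes from 0.00 to -0.09. Of the 10 tested ER luminal calcium-binding proteins, 8 passed. HSP90B1 (GRP94) rose by 0.29 and PDIA3 (ERp57) by 0.27, and CALR, CANX, HSPA5, PDIA4 and SDF4 were also higher, while RCN2, an EF-hand protein, was lower by -0.36. With total-count scaling PDIA3 and the other 5 named here after HSP90B1 did not pass. In 1 fit over both lines RCN2 was the one of the 8 that passed, and its call was lost without hypoxia replicate 2 or 3 (adjusted p = 0.0678 and 0.0779, edgeR). In PC3 none of the 8 passed in the main fit, but PDIA3 (edgeR adjusted p = 0.0423) and SDF4 passed with the replicate block. C4orf3 rose in HCT116 from 37.3, 37.9 and 39.9 CPM to 118, 125 and 104 CPM (log2FC 1.61 ± 0.08). ORAI3, a relative of ORAI1, rose there from 2.00, 2.37 and 1.84 CPM to 3.42, 5.29 and 4.01 CPM (1.05 ± 0.17). Both held whichever library was left out and under total-count scaling.

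Smaller changes in HCT116 were those of the IP3 receptor partners BOK (0.35) and TMBIM6 (0.26), the store-operated entry genes ORAI2 (0.25) and SARAF (0.26, counted as TMEM66), the muscle release channel RYR1 (0.39), the mitochondrial channel VDAC1 (0.18) and the phospholipase C gene PLCB2 (-0.62). In the 6 fits that each left out a library, BOK passed in all, TMBIM6 and PLCB2 in 4, SARAF in 3, ORAI2 and RYR1 in 1 and VDAC1 in none. In 1 fit over both lines none of these 7 passed (adjusted p of 0.0675 to 0.323, edgeR). Without normoxia replicate 1, normoxia replicate 2 or hypoxia replicate 2, the count of 17 fell to 8, where 19.7%, 17.9% and 18.1% of all genes passed. Without hypoxia replicate 3 it fell to 11, where 18.7% did. For the difference between the lines 69 genes of the list were tested and 2 passed, C4orf3 and ERLIN2 (2.90%, against 2.32% of all genes). C4orf3 rose less in PC3 by -0.73 ± 0.11 (edgeR adjusted p = 0.00318), and ERLIN2, at 0.08 in HCT116, differed by -0.54 ± 0.10 (edgeR adjusted p = 0.00795). ORAI3 differed by -0.80 (95% interval -1.40 to -0.20) and did not pass (adjusted p = 0.160). With the replicate block it passed (-0.79, edgeR adjusted p = 0.0235), as did 9 pathway genes in all, HSP90B1 among them (adjusted p = 0.0229), where 8.44% of all genes did. The genes left untested for low counts, 12 in PC3 and 11 in HCT116, included PLN and SLN, the muscle SERCA inhibitors, in both.

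**Figure D5:**
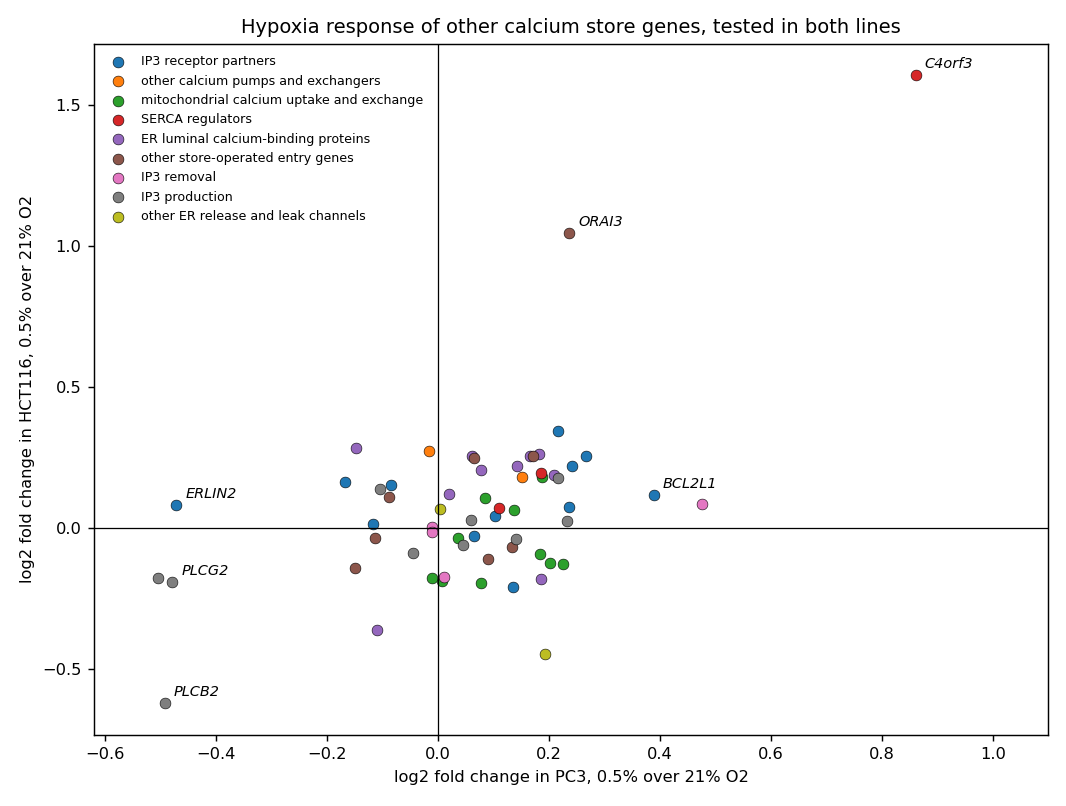
Log2FC of hypoxia over normoxia in PC3 (x axis) and HCT116 (y axis) for the 61 pathway genes tested in both lines, coloured by role. C4orf3 lies at 0.86 and 1.61, ORAI3 stands apart on the HCT116 axis at 1.05, and ERLIN2 lies at -0.47 on the PC3 axis and 0.08 on the other.

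The genes whose pattern over the 14 libraries was most like that of ITPR1 were SLC5A3, a myo-inositol transporter, C10orf10 and LYPD3. Their root-mean-square differences from it were 0.336, 0.364 and 0.404 in log2 CPM centred on each gene's mean, the smallest among 15493 genes. SLC5A3 averaged 108 ± 7.94 and 414 ± 111 CPM in normoxic and hypoxic PC3 (SD, n = 4), and 33.7 ± 2.02 and 44.1 ± 0.826 CPM in HCT116 (SD, n = 3). For ATP2A1 they were ADAT2 (0.314), a subunit of a tRNA-editing enzyme, EXTL2 (0.339) and FBXO16 (0.357). ADAT2 averaged 7.87 ± 0.883 and 4.55 ± 1.19 CPM in PC3, and 23.9 ± 0.478 and 14.8 ± 0.925 CPM in HCT116.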

How the data were processed

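Polyadenylated RNA was sequenced in 14 libraries of PC3 and HCT116 cells. The authors aligned the reads with HISAT2 (2.05) to GRCh37 after removing ERCC spike-in reads, and deposited for each library the read count of each RefSeq gene from HTSeq (0.5.4p3, intersection-strict mode), without normalisation. Counting of that kind drops reads shared by overlapping genes. The RefSeq release and the use of strand are not given in the sources used here. The study's methods call the replicates biological, and their counts differed by far more than counting error (chi-square of 12.5 to 268 per gene).

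Counts were tested in R 4.3.3 with edgeR 4.0.16: filterByExpr, TMM scaling and the quasi-likelihood test, two-sided, with Benjamini-Hochberg adjustment over all genes tested and a threshold of 0.05. The study scaled its RNA-seq to the ERCC spike-ins and used DESeq2. TMM changes are relative to most genes, so they may differ from changes on that scale. Hypoxia was tested within each line, and the lines and the difference of their responses in 1 fit over 14 libraries. Standard errors were taken from the ratio of each log2 fold change to the root of its F, and 95% intervals use the test's degrees of freedom. Intervals and floors of 3 counts cover counting error or the spread between these libraries only. Gene positions and transcript lengths came from GENCODE v44lift37, in which 96.3% of symbols were found. Shares within families, with no test, used the longest transcript.

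On simulated data with 200 genes changed 2-fold, 176 were recovered in PC3 (15 false calls), 181 in HCT116 (6), 164 between the lines (12) and 131 for the interaction (3). The simulated spread followed its trend with expression, without pairing or a spread of each gene's own. Most responses of the members to hypoxia were smaller than 2-fold, so these counts do not give the recovery of such changes. Replicate numbers in the labels pair the PC3 libraries: deviations from the group means of same-numbered libraries correlated at 0.672, 0.265, 0.137 and 0.279. PC3 changes, intervals and adjusted p-values are from the fit without this pairing unless the replicate block is named. That fit called 11.3% of all genes in PC3, and the fit with the block 28.5%.

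The members, the lists and the tests were chosen with earlier results of these data known. Named genes are the 10 members, up to 3 pathway genes per role and line with the largest change past the threshold and a mean of at least 1 CPM, overlapping genes, genes within 10000 bases of ITPR1 or ATP2A1, and the 3 genes most like each of those 2. CALR, CANX, HSPA5, PDIA4, SDF4, PLN and SLN were named after their values were seen. Some prostate markers are not reported here. Alternatives were other scalings, filters, DESeq2 1.42.0, 1 fit over both lines, the replicate block and each library left out. Leaving out both replicate 1 libraries of PC3, and coding lengths, were added after seeing the data.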

Additional observations from a re-analysis of the deposited data

Results flagged for a closer look

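Single libraries stood far from the others of their group in 2 of the 48 groups of 4 PC3 libraries examined, where chance alone gives about 2.4 (1 in 20). ATP2B1 was at 159 CPM in hypoxia replicate 4, against 188 to 194 CPM in the other 3 hypoxic PC3 libraries. BOK, an IP3 receptor partner, was at 53.4 CPM in normoxia replicate 3, against 50.9 to 51.2 CPM in the other 3.

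The response to hypoxia differed between the lines for 2 of the 69 pathway genes tested (2.90%). This was edgeR's test of the difference over 14 libraries, in which 2.32% of all genes passed. The response in PC3 minus that in HCT116 was -0.73 on the log2 scale for C4orf3, which rose in all hypoxic libraries of both lines, and -0.54 for ERLIN2, which was lower in 4 of 4 hypoxic PC3 libraries and overlapping between the conditions in HCT116.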

How the results depend on the processing

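Members whose value led to the choice of the genes are left out of the counts of that contrast. ATP2B4 was called in both lines under every alternative, and the 7 calls between the lines likewise, ITPR1 and ATP2A1 among them. In PC3 the count of 1 was 2 in 1 fit over both lines, with ATP2A1, and 1 to 2 with each library left out. In HCT116 the count of 5 was 2 in 1 fit over both lines and 2 to 5 with each library left out. DESeq2 called 1 member for the difference between the lines, where edgeR called 0.

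The 4 pathway genes called in PC3, where 11.3% of all genes were, became 8 with DESeq2 (13.8%), 9 in 1 fit over both lines (15.9%) and 2 to 4 with each library left out (3.83% to 14.4%). The 17 in HCT116, where 25.9% of all genes were called, became 21 with DESeq2 (22.5%), 3 in 1 fit over both lines (11.2%) and 8 to 16 with each library left out (17.9% to 23.4%). The 2 for the difference between the lines became 5 with DESeq2, where 5.00% of all genes were called in place of 2.32%. Leaving out both replicate 1 libraries of PC3 gave 1 member and 3 pathway genes (12.5%). The causes were not tested.

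With the replicate number as a block, 12 pathway genes were called in PC3 and 9 for the difference between the lines, where 1307 genes in place of 359 were called. The block changed no member's call. In HCT116 same-numbered libraries correlated at 0.0912, 0.141 and 0.0412, each best with its own number. These low values do not settle whether the HCT116 libraries were paired. The block called 5 members and 15 pathway genes there, without CANX, PDIA4, SDF4 and VDAC1.

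The signs of changes near 0 turned, none of them called. In PC3, ITPR3 was at -0.014 with upper-quartile and -0.072 with total-count scaling, and between -0.0048 and 0.12 with each library left out. With total-count scaling ATP2A2 was at -0.025, ATP2B1 at -0.038 and ORAI1 at -0.039 in PC3, and STIM1 at -0.051 and ERLIN2 at -0.013 in HCT116. STIM1 in HCT116 lay between -0.0014 and 0.071 with each library left out. Between the lines, ITPR3 was at -0.056 with upper-quartile scaling, -0.013 with the 7 normoxic libraries alone and -0.040 to 0.081 with each library left out, and ATP2A2 and ATP2B4 were at 0.043 and 0.0014 with total-count scaling. That scaling moved the median log2 change of all genes from 0.00 to -0.10 in PC3, from 0.00 to -0.09 in HCT116 and from 0.05 to 0.13 between the lines.

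Shares moved with the length used. With no length correction ITPR3 held 82.0% in normoxic PC3 and 93.1% and 93.3% in normoxic and hypoxic HCT116. In the order normoxic PC3, hypoxic PC3, normoxic HCT116 and hypoxic HCT116, ATP2A2 held 99.5%, 99.5%, 97.0% and 96.6% with no correction and 99.5%, 99.5%, 97.0% and 96.6% with coding lengths. ATP2B4 held 27.4%, 33.3%, 38.9% and 42.7% with no correction and 27.6%, 33.6%, 39.2% and 43.0% with coding lengths. ATP2A3 held 2.68% and ATP2A1 0.324% in normoxic HCT116 with coding lengths. The shares of ITPR1 moved by less than their SD. The planned length from RefSeq proteins was not run. Depth limits ATP2A1 most, with 16 to 76 counts per library in PC3.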
